A study of Mus musculus with 8 samples.

Results

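Emx1, Emx2, Lhx2, Otx1, Pax6, Dlx1, Dlx2 and Gsx2, 8 homeodomain transcription factor genes that pattern the embryonic forebrain, were followed in cultured cells of WT and S89G-DMP1 mice. The members were chosen by symbol, and all 8 were found by their Ensembl identifiers among the 47729 genes counted in neural stem cells (NSCs) and among the 40562 genes counted in astrocytes. DMP1 is a secreted matrix protein that carries a glycosaminoglycan chain, and S89G-DMP1 mice carry a point mutation in which serine 89, the attachment site of that chain, is replaced by glycine in every tissue. The study asked whether loss of the chain alters the transcriptome of astrocytes and of the NSCs that give rise to them. The WT NSC and S89G-DMP1 NSC groups held 3 libraries each, from subventricular zone cells grown as neurospheres in DMEM/F12 with N2 supplements. The WT AST and S89G-DMP1 AST groups held 1 library each, from cortical astrocytes grown in DMEM with 10% FBS. All mice were C57BL/6, and the labels gave an age of 10 weeks, while the study's methods gave 3 months for the donors of the astrocyte cultures. Neither source stated whether the 3 NSC libraries of a genotype came from separate animals or cultures, so the p-values below measure only the spread between these libraries, which may be technical.

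Patterning transcription factors divide the early telencephalon into a dorsal pallium, which forms the cortex, and a ventral subpallium, which forms the basal ganglia and most cortical interneurons. Emx1, Emx2, Lhx2, Otx1 and Pax6 are dorsal factors that act in cortical progenitors, and Pax6 is also required in the eye and in other parts of the central nervous system. Gsx2 specifies ventral progenitors, and Dlx1 and Dlx2, a tandem pair of Distal-less homologs, drive the production and migration of GABAergic neurons. In the adult subventricular zone, stem cells keep much of this dorsal and ventral code according to their position. On GRCm38, Dlx1 (ENSMUSG00000041911) lies on the plus strand at chr2:71528113-71533981, and Dlx2 (ENSMUSG00000023391) lies on the minus strand at chr2:71543408-71546754, with 9426 bases between their 3′ ends. Chromosome 2 also carries Lhx2 (ENSMUSG00000000247, chr2:38339281-38369733) and Pax6 (ENSMUSG00000027168, chr2:105668900-105697364), both on the plus strand. Emx1 (ENSMUSG00000033726) lies at chr6:85187438-85204462, Emx2 (ENSMUSG00000043969) at chr19:59458372-59465357 and Gsx2 (ENSMUSG00000035946) at chr5:75075601-75077893, all on the plus strand, and Otx1 (ENSMUSG00000005917) lies on the minus strand at chr11:21994764-22002897.

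RefSeq windows of 250 bases directly upstream of annotated starts (GRCm38.p6) were found for 7 of the 8 members, 9 windows in all. The windows of Pax6 (chr2:105668646-105668895, plus strand), Lhx2 (chr2:38339031-38339280, plus strand) and Dlx2 (chr2:71546755-71547004, minus strand) are shown because these genes each had the highest level of any member in at least 1 group, and because they lie wholly upstream of the annotated gene. Each is written 5′ to 3′ on the strand of the gene, with matches to GGGCGG or its complement CCGCCC, the core of a GC box, in capitals.
Pax6: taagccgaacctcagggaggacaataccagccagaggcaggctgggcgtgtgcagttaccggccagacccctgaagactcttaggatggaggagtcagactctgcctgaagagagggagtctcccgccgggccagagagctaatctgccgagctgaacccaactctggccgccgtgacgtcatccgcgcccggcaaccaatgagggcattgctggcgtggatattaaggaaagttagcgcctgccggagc
Lhx2: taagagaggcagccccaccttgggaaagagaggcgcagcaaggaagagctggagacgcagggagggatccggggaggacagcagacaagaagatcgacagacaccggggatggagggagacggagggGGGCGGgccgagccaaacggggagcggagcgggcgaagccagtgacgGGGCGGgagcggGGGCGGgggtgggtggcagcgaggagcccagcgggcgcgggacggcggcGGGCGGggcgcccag
Dlx2: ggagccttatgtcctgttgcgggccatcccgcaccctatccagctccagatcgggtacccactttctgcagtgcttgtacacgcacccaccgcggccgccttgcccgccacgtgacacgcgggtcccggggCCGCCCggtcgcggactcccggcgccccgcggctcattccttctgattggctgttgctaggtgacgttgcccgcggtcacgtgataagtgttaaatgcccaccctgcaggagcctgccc
The Lhx2 window shown held 4 GC box matches, the Dlx2 window held 1, and the Pax6 window shown held none, so that it is printed without capitals. Lhx2 and Pax6 each have a further window, within the annotated gene, and neither of these held a match. Of all 32851 windows in the table, 32.7% held at least 1 such match. The homeodomain core TAATTA, which occurred in 4.84% of all windows, was found in none of the 9 member windows, and TATAAA or TTTATA, which occurred in 12.4% of all windows, was found only in that of Gsx2. A match of letters is a description of the window and not evidence of a bound factor.

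The 6 NSC libraries held 2354615 to 2588130 counted reads each, and the astrocyte libraries held 13016924 (S89G-DMP1) and 14008670 (WT). The NSC libraries carried stem cell markers at a summed 3343 to 3725 CPM (counts scaled to the library total), and the lists of markers of fibroblasts, mural cells, endothelium and microglia summed to at most 11.3 CPM per list. The astrocyte libraries did not match each other in cell type markers. The WT AST library, labelled as astrocytes, held 90 counts of Gfap, 8 of Aqp4, 8 of Slc1a3 and 30 of Sox2, against 901, 4051, 3877 and 2705 in the S89G-DMP1 AST library. Not every astrocyte marker was higher there, since S100b had 64 counts in WT AST and 30 in S89G-DMP1 AST. Gja1 was higher there by a smaller factor, with 1165 and 1913 counts. Fibroblast and meningeal markers summed to 4933 CPM in WT AST and 2320 CPM in S89G-DMP1 AST, with all 8 of the list at 10 or more counts in both. They also differed in sex-linked reads, with 12172 counts of Xist and none of the Y-linked Ddx3y in WT AST against 74 and 1277 in S89G-DMP1 AST, whereas every NSC library held both. Dmp1 itself, which the point mutation leaves in place so that its level does not check the genotype, was at 3 to 6 counts in S89G-DMP1 NSCs, 16 to 21 in WT NSCs, 119 in S89G-DMP1 AST and 2 in WT AST.

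Levels were first compared between members, on scales that divide by gene length. In the deposited TPM (transcript abundance scaled to length and depth) of NSCs, Lhx2 was the most abundant member in both genotypes, with a median of 54.4 TPM in WT and 54.6 TPM in S89G-DMP1. Emx2 followed at a median of 29.7 TPM in WT and 27.3 TPM in S89G-DMP1, and Pax6 was at 27.6 and 26.6 TPM. The ranges of Emx2 and Pax6 overlapped in both genotypes, so their order was not set. Otx1 had a median of 14.9 TPM in WT, below all Pax6 values, and of 21.7 TPM in S89G-DMP1, where its range of 11.02 to 23.7 TPM overlapped that of Pax6. Dlx2, at a median of 4.39 TPM in WT and 5.08 TPM in S89G-DMP1, and Dlx1, at 2.94 and 0.908 TPM, were below all 4 dorsal factors in every NSC library. Emx1 and Gsx2 did not exceed 0.811 TPM in any NSC library.

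In the deposited FPKM (fragments per kilobase, scaled to depth) of astrocytes, the order of members was different in the 2 libraries. The WT AST library was led by Dlx2 at 8.20 FPKM, followed by Emx2 at 4.57, Lhx2 at 3.15, Dlx1 at 1.90, Pax6 at 1.71 and Otx1 at 0.315 FPKM. The S89G-DMP1 AST library was led by Pax6 at 45.5 FPKM, followed by Lhx2 at 13.4, Dlx2 at 6.74, Dlx1 at 2.57, Otx1 at 2.04 and Emx2 at 0.844 FPKM. By 95% counting intervals, which cover counting error only, neighbours in WT AST from Emx2 to Pax6 were not separated, nor were Dlx1 and Otx1 in S89G-DMP1 AST. TPM and FPKM were made in separate tables, so no level was compared across them.

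**Figure D1:**
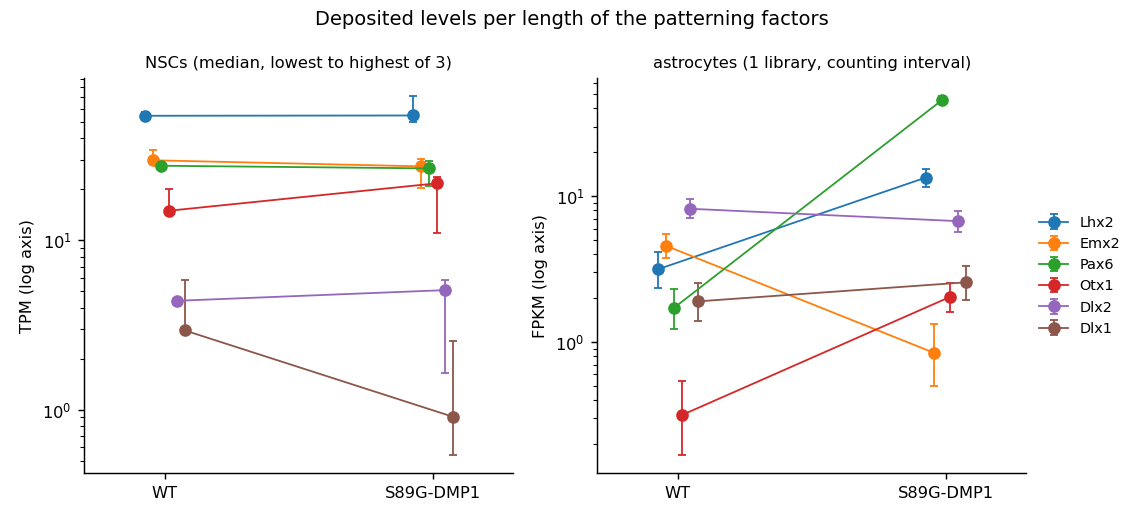
Deposited levels per length of the 6 members with more than 1 count per library, on log axes, in TPM for NSCs (left, points are medians and bars run from the lowest to the highest of 3 libraries) and in FPKM for astrocytes (right, 1 library per genotype, bars are 95% counting intervals). Lhx2 led in both NSC groups, at 54.4 and 54.6 TPM, while the leading member was Dlx2 in WT AST and Pax6 in S89G-DMP1 AST.

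In NSCs, Dlx1 was the only member called between genotypes, on low counts and with a call that did not hold in every alternative, by the quasi-likelihood test of edgeR, with p-values adjusted by Benjamini-Hochberg over all 11194 tested genes and a threshold of 0.05. Of the 8 members, 6 passed the filter on low counts and 1 was called, as lower in S89G-DMP1 NSCs, against 15.8% of all tested genes called in either direction and 8.76% called lower, so the members' share was near that of all genes. The median log2 fold change of S89G-DMP1 over WT was -0.14 over the 6 members and 0.00 over all tested genes. Dlx1 was also the only tested member whose CPM did not overlap between genotypes, which was so for 30.7% of all tested genes. In bulk RNA, fewer cells that express a gene and less RNA per cell cannot be told apart.

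Among the dorsal factors, Lhx2, a LIM-homeodomain selector of cortical identity, was at 55.2, 56.7 and 57.9 CPM in WT NSCs and at 69.9, 60.8 and 54.1 CPM in S89G-DMP1 NSCs. These values overlapped, since 1 S89G-DMP1 library was below all of WT and the other two were above. The log2 fold change was 0.12 (95% interval -0.09 to 0.33, edgeR adjusted p = 0.504). Emx2, which promotes caudal and medial cortical fates, was at 39.6, 30.3 and 32.7 CPM in WT and at 21.9, 35.95 and 32.5 CPM in S89G-DMP1. A single S89G-DMP1 library was below the WT range, and without it the log2 fold change of -0.18 (95% interval -0.47 to 0.11, edgeR adjusted p = 0.458) turned to 0.0045.

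Pax6, a paired-type homeodomain factor of dorsal progenitors, was at 32.0, 33.02 and 38.3 CPM in WT NSCs and at 38.3, 32.5 and 25.7 CPM in S89G-DMP1 NSCs. The groups overlapped, with S89G-DMP1 replicate 3 below the WT range. The log2 fold change of -0.10 (95% interval -0.38 to 0.17, edgeR adjusted p = 0.683) turned to 0.038 without that library. Otx1, an orthodenticle homolog active in deep-layer cortex and its progenitors, was at 24.4, 20.2 and 19.6 CPM in WT and at 28.6, 26.5 and 23.3 CPM in S89G-DMP1. Only the lowest S89G-DMP1 library fell inside the WT range, and the log2 fold change was 0.29 (95% interval -0.02 to 0.60, edgeR adjusted p = 0.223). The intervals of Lhx2, Emx2, Pax6 and Otx1 all lay within a log2 fold change of -0.47 to 0.60. Emx1, a marker of the cortical lineage, had 1 count in 1 library of each genotype and none in the other NSC libraries, which was too few to test.

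Among the ventral factors, Dlx1 had 13, 15 and 17 counts in WT NSCs, or 5.48, 5.83 and 6.79 CPM. In S89G-DMP1 NSCs it had 9, 2 and 5 counts, or 3.79, 0.856 and 2.01 CPM. All S89G-DMP1 values were below all WT values. The mean of WT was 6.03 ± 0.679 CPM and that of S89G-DMP1 was 2.22 ± 1.48 CPM (SD, n = 3 libraries each), a 2.68-fold lower level with a log2 fold change of -1.42 (SE 0.398, 95% interval -2.22 to -0.63, edgeR adjusted p = 0.00735). A two-sided exact permutation test of the CPM values gave p = 0.1, the smallest that 3 against 3 libraries allow. The gene passed the filter on low counts through the WT libraries alone, so a difference was favoured by the filter, and its TPM ranged 4.73-fold among the S89G-DMP1 libraries. The call was lost in DESeq2 (adjusted p = 0.108, where 0 of 6 members and 7.6% of all tested genes were called), in limma on the deposited TPM values (adjusted p = 0.252 with a pseudocount of 1), and in edgeR without S89G-DMP1 replicate 2, the library with 2 counts (log2 fold change -1.06, adjusted p = 0.0899).

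The neighbouring Dlx2 was at 3.79, 4.27 and 5.19 CPM in WT NSCs and at 4.21, 4.28 and 1.60 CPM in S89G-DMP1 NSCs. These rest on 9 to 13 counts in WT and 4 to 10 counts in S89G-DMP1, and the low S89G-DMP1 library was not the one lowest for Dlx1. The log2 fold change of Dlx2 was -0.41 (95% interval -1.18 to 0.37, edgeR adjusted p = 0.545), an interval that includes no difference and part of the interval of Dlx1. The difference between the log2 fold changes of the paired genes was not tested. Gsx2 had 1 count in each of 2 S89G-DMP1 libraries and none in the third or in WT, and 3 counts, the limit that a count of 0 allows, correspond to 1.16 to 1.27 CPM at this depth.

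Markers of other cell states were read in the same NSC libraries. Markers of neuroblasts and GABAergic neurons, the cells in which Dlx1 and Dlx2 act, summed to 44.0 to 48.7 CPM for WT and 39.7 to 43.4 CPM for S89G-DMP1, and neither of the 2 tested genes among 6 was called. The vesicular GABA transporter Slc32a1 was at 0 in all 6 libraries. Astrocyte markers summed to 1462 to 1509 CPM for WT and 1976 to 2029 CPM for S89G-DMP1, with 3 of 6 tested genes called higher (Aldh1l1, Gja1 and Slc1a3), beside 7.08% of all tested genes. Of the neural stem cell markers, 1 of 5 tested genes was called higher (Fabp7), and of the oligodendrocyte precursor markers 2 of 3 were called lower (Pdgfra and Cspg4), beside 8.76% of all tested genes. The part of these markers in the Dlx1 difference was not tested.

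**Figure D2:**
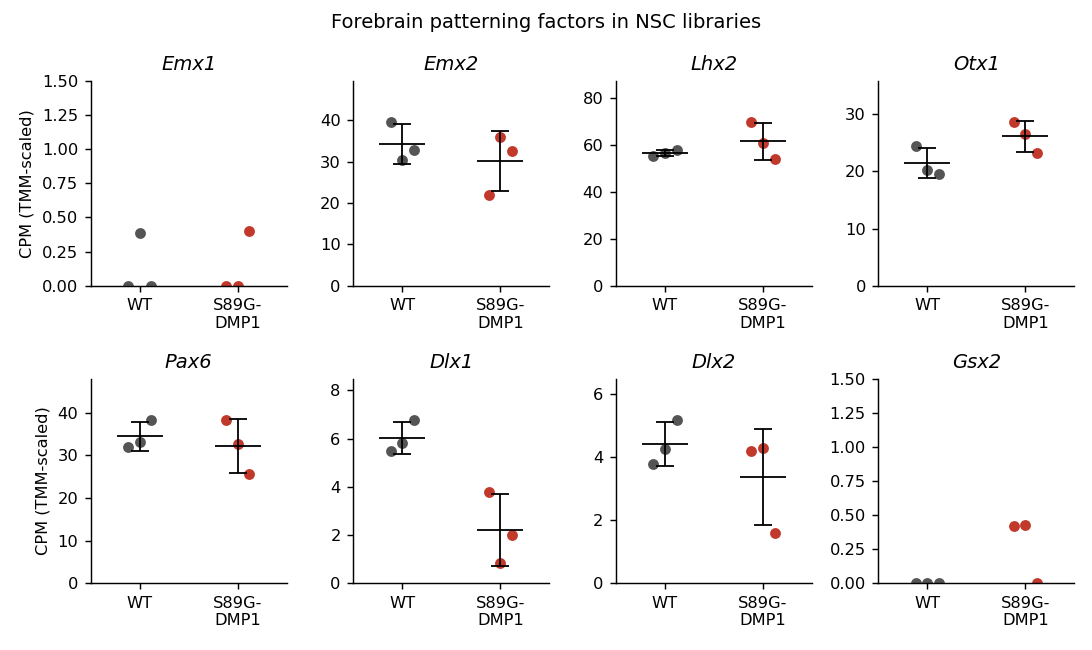
CPM of the 8 members in the 6 NSC libraries, 1 panel per gene with its own linear axis from 0. Dots are libraries, and the bars give the mean and SD of 3 libraries (not drawn for Emx1 and Gsx2, which had at most 1 count per library). Dlx1 was the only tested member whose WT values, 5.48 to 6.79 CPM, lay wholly above its S89G-DMP1 values, 0.856 to 3.79 CPM.

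Antisense genes overlap some members, and the library kit named in the labels does not mark strand, so reads from the 2 strands cannot be told apart where exons overlap. Dlx1as shares 335 exon bases with Dlx1 and had 4, 8 and 9 counts in WT NSCs against 6, 1 and 1 counts in S89G-DMP1 NSCs. It fell below the filter, and in an edgeR fit without one its log2 fold change was -1.30 with an adjusted p of 0.182. With its reads added to those of Dlx1, the log2 fold change of the sum was -1.40 (edgeR adjusted p = 0.0019), in an alternative added after the data were seen. Emx2os shares 264 exon bases with Emx2 and had 15 to 22 counts in WT and 9 to 22 counts in S89G-DMP1, with a log2 fold change of -0.21 (edgeR adjusted p = 0.701). Pax6os1 had no count in any NSC library, and Dlx6os1 had 1 count in a single library.

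The other genes of the dorsal and ventral programs were read from lists of 15 further pallial and 14 further subpallial genes. Of the pallial genes, 3 were tested and 1 was called, as higher in S89G-DMP1, beside 7.08% of all tested genes called higher. This was Dmrta2, a doublesex-related factor of medial cortical progenitors, at 19.8, 24.5 and 21.2 CPM in WT and 29.5, 32.5 and 30.1 CPM in S89G-DMP1. Its values did not overlap, with a log2 fold change of 0.49 (SE 0.149, edgeR adjusted p = 0.0155), but the call was lost in DESeq2 (adjusted p = 0.160) and without S89G-DMP1 replicate 2, WT replicate 1 or WT replicate 3, where the adjusted p reached 0.0728. Gli3 and Nr2f1, chosen for mention after their values were seen, had log2 fold changes of 0.08 and -0.18 and were not called. A fit without the filter on low counts called 3 of 10 pallial genes higher, beside 776 of all 21433 genes called higher. Besides Dmrta2 these were Otx2 and Sp8, at edgeR adjusted p = 0.00991 and 0.00438, again chosen after their values were seen. Otx2 had 0 counts in each WT library, and 1, 5 and 5 in S89G-DMP1. Sp8 had 1, 0 and 0 counts in WT, and 6, 5 and 5 in S89G-DMP1.

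Of the 14 further subpallial genes, 4 were tested and 1 was called, as lower in S89G-DMP1 NSCs, beside 8.76% of all tested genes called lower. This was Six3, a sine oculis homolog of the rostral forebrain, with 23.2, 28.4 and 22.4 CPM in the WT libraries against 7.16, 11.1 and 11.6 CPM in the S89G-DMP1 libraries. Its values did not overlap, and the log2 fold change was -1.30 (SE 0.195, edgeR adjusted p = 4.39e-07). The call held in DESeq2 and in each of the 6 fits without one library, and was lost in limma on the deposited TPM values. The remaining tested genes, Olig2, Meis2 and Gsx1, had log2 fold changes of 0.08, 0.00 and -0.09 and were not called. The median log2 fold change was 0.08 over the 3 tested pallial genes and -0.05 over the 4 tested subpallial genes. None of 14 midbrain and hindbrain factors passed the filter in NSCs, where the list summed to 0.836 to 3.58 CPM.

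**Figure D3:**
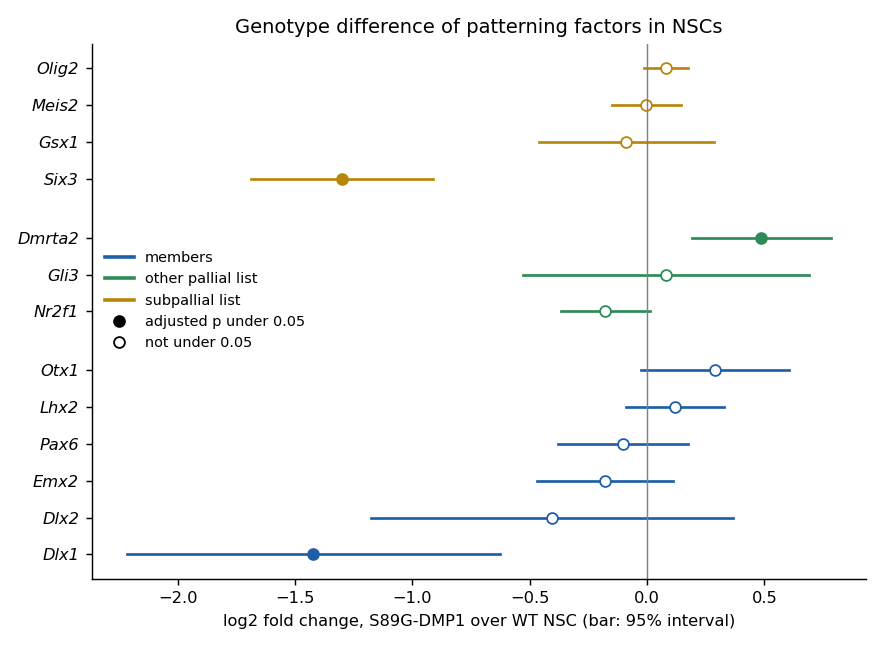
Log2 fold change of S89G-DMP1 over WT NSCs with its 95% interval for the 13 tested genes of the members and of the pallial and subpallial lists. Filled points passed an edgeR adjusted p of 0.05 over all genes: Dlx1 at -1.42, Dmrta2 at 0.49 and Six3 at -1.30.

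The genes whose log2 CPM followed that of Dlx1 most closely over the 6 NSC libraries were Creb3l1 (Pearson r = 0.993), Neu1 (r = 0.990), Ahr (r = 0.989), Cerk (r = 0.987) and Adcy6 (r = 0.984). These libraries fall into 2 genotypes and the highest of 11194 correlations were taken, so the values are a description only.

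In astrocytes, where no test was possible with 1 library per genotype, the members differed more widely and in both directions. Of the 8 members, 6 had at least 10 counts in either library, and 3 of them (Pax6, Otx1 and Lhx2) were at least 2-fold higher in S89G-DMP1 AST, 1 (Emx2) was at least 2-fold lower, and Dlx1 and Dlx2 were under 2-fold. Among all 15680 genes counted in this way, 30.1% were at least 2-fold apart, 17.3% higher and 12.8% lower in S89G-DMP1 AST. The median log2 ratio was 0.95 over the 6 members and 0.01 over all genes with TMM scaling. With library totals as the scale, the median of all genes was 0.30, and the ratios below are on the TMM scale unless stated.

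Pax6 had 42 counts (3.32 CPM) in WT AST and 1039 counts (72.1 CPM) in S89G-DMP1 AST. This was the largest ratio among the members, 21.7-fold higher in S89G-DMP1 AST, with a 95% counting interval of 16.0 to 30.4. Otx1 had 13 counts in WT and 78 in S89G-DMP1, a 5.27-fold higher level (interval 2.91 to 10.3), and Lhx2 had 51 and 202 counts, a 3.48-fold higher level (interval 2.55 to 4.83). Emx2 went in the opposite direction to these other dorsal factors, with 105 counts in WT and 18 in S89G-DMP1, a 6.64-fold lower level (interval 4.001 to 11.6). Its antisense partner Emx2os had 30 and 6 counts, 5.69-fold lower in S89G-DMP1 AST (interval 2.33 to 16.7). Of the 6 members with at least 50 counts in either library, Pax6, Otx1 and Emx2 were at least 4-fold apart, beside 12.2% of all 12675 genes at that depth.

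The ventral pair differed by less than 2-fold between the astrocyte libraries. Dlx1 had 47 counts in WT AST and 59 in S89G-DMP1 AST, a ratio of 1.10 (counting interval 0.740 to 1.65), and Dlx1as had 21 and 33 counts. Dlx2 had 178 and 136 counts, 1.49-fold lower in S89G-DMP1 AST (interval 1.18 to 1.88), which became a log2 ratio of -0.28 in place of -0.57 with library totals as the scale. Emx1 had no count in WT AST and 1 count in S89G-DMP1 AST although the labels give cortex as the tissue, and Gsx2 had none in either, which allows up to 0.214 CPM for WT and 0.230 CPM for S89G-DMP1. Pax6os1 had 0 and 6 counts and Dlx6os1 had 1 and 4 counts in WT and S89G-DMP1 AST.

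**Figure D4:**
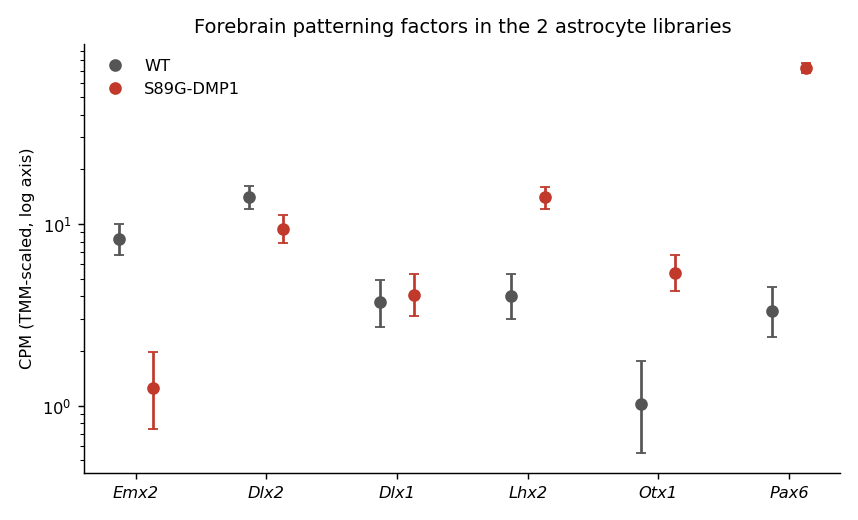
CPM on a log axis of the 6 members with at least 10 counts in either astrocyte library, ordered by their ratio, with 95% counting intervals around each of the 2 libraries. Pax6 stood at 3.32 CPM for WT and 72.1 CPM for S89G-DMP1 AST, Emx2 was 6.64-fold lower, and the intervals of Dlx1 overlapped.

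The other pallial genes showed no single direction in astrocytes. Of 15, 8 were counted, and 4 of them (Gli3, Otx2, Nr2f1 and Sp8) were at least 2-fold higher in S89G-DMP1 AST, beside 17.3% of all counted genes. Only 1 (Eomes) was at least 2-fold lower, on 14 counts in WT and 1 in S89G-DMP1, beside 12.8% of all counted genes. The other 3 were under 2-fold, and the median log2 ratio was 0.88. Gli3, Otx2 and Eomes are named after their values were seen. Nr2f1, a nuclear receptor of caudal cortex, had 254 counts in WT and 1323 in S89G-DMP1 (4.58-fold higher), and Sp8, a zinc finger factor of rostral patterning, had 3 and 114 counts (33.4-fold higher, interval 11.1 to 164).

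Of the 14 subpallial genes, 8 were counted in astrocytes. By log2 ratios with a prior count of 2, 5 were at least 2-fold higher in S89G-DMP1 AST and 1 lower, beside 17.3% and 12.8% of all counted genes. Another 2 were under 2-fold. Of these, Sp9, named after its value was seen, was 2.15-fold higher without the prior count (counting interval 0.951 to 5.30). On the log2 scale the median ratio of the list was 1.60, also when the bound was used for the 2 genes at 0 in WT AST. Six3 had 9 counts in WT and 53 in S89G-DMP1 (5.18-fold higher), and Olig2, a basic helix-loop-helix factor of ventral progenitors and oligodendrocyte lineage, had 3 and 782 counts (229-fold higher, interval 78.1 to 1114). Nkx6-2 had no count in WT AST against 139 in S89G-DMP1 AST, at least 40.7-fold higher when the WT library is set to 3 counts. The exception was Lhx6, a LIM factor of interneurons from the medial ganglionic eminence, with 483 counts in WT and 28 in S89G-DMP1, 19.6-fold lower.

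Factors of the midbrain and hindbrain were read alongside. All 13 counted genes of 14 were at least 2-fold higher in S89G-DMP1 AST, beside 17.3% of all counted genes. Their log2 ratios ran from 2.83 to 8.72 with a median of 4.82 (4.78 when the bound was used for the 2 genes at 0 in WT AST). The engrailed factors of the midbrain and cerebellum were among them, En1 with 37 and 846 counts and En2 with 2 and 1849 counts in WT and S89G-DMP1. The paired box factors Pax2, Pax3, Pax5 and Pax8 had 1 to 21 counts in WT and 119 to 616 in S89G-DMP1, and Lmx1b, a LIM factor of the isthmus and of monoaminergic neurons, had 19 and 773 counts. Gbx2, a factor of the anterior hindbrain, had 0 and 94 counts, and Hoxa2, Hoxa3 and Hoxb3, which mark hindbrain segments, had 1 to 14 and 154 to 208 counts. The list summed to 8.49 CPM in WT AST and 400 CPM in S89G-DMP1 AST.

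**Figure D5:**
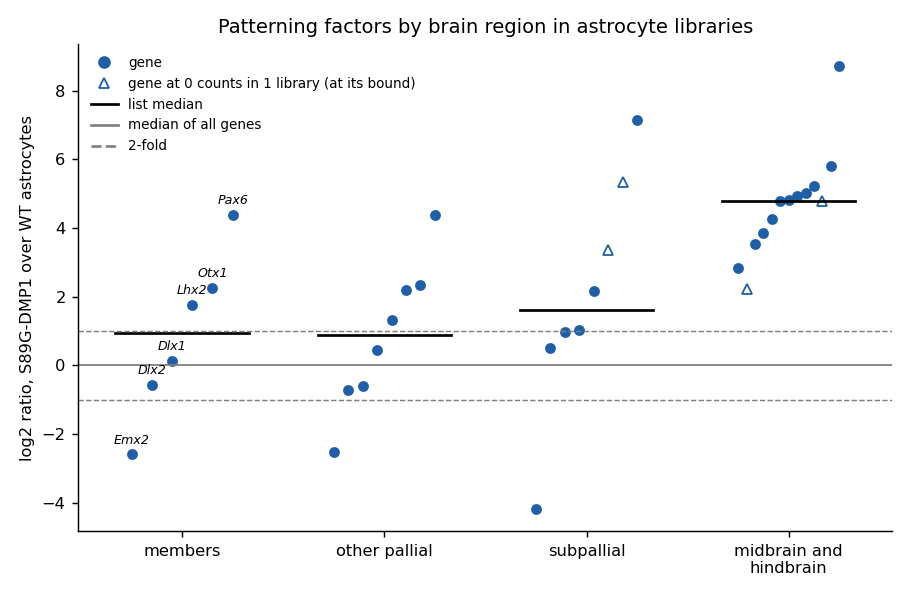
Log2 ratio of S89G-DMP1 over WT astrocytes (1 library each) for the counted genes of 4 lists. Each point is a gene, open triangles are genes at 0 counts in WT AST drawn at their lower bound, black bars are list medians with those genes at the bound (0.95, 0.88, 1.60 and 4.78 from left to right), and dashed lines mark 2-fold. The members spread on both sides of the median of all genes, while all 13 counted midbrain and hindbrain factors lay above 2-fold, beside 17.3% of all counted genes.

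Cell type markers moved with genotype in the same astrocyte libraries, as described above. Astrocyte markers summed to 106 CPM in WT AST and 1154 CPM in S89G-DMP1 AST, with 6 and 8 of 8 genes at 10 or more counts, and neural stem cell markers summed to 660 and 2213 CPM, with Hes5 at 0 in both. Mural markers summed to 1667 and 2908 CPM with Kcnj8 at 0 in both, a higher sum in S89G-DMP1 AST carried by Acta2 (9152 and 35539 counts), while Pdgfrb (11765 and 2276 counts) and Rgs5 (2431 and 39 counts) were lower in S89G-DMP1 AST. The lists differed further in endothelial markers, at 146 and 17.7 CPM with Cldn5 at 0 in both, and in microglial markers, at 412 and 726 CPM. Such sums do not give the direction of each gene in a list. The part of cell composition, of sex and of brain region in the member ratios was not tested, and with 1 library per genotype none of them can be told apart from genotype.

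Set side by side, the log2 values of S89G-DMP1 over WT were -0.18 in NSCs and -2.59 in astrocytes for Emx2, 0.12 and 1.76 for Lhx2, 0.29 and 2.24 for Otx1, and -0.10 and 4.38 for Pax6. For the ventral pair they were -1.42 and 0.14 for Dlx1 and -0.41 and -0.57 for Dlx2. The member with the largest difference in astrocytes, Pax6, had the smallest in NSCs among those tested, close to that of Lhx2. This order in NSCs was not set. Limma on log2(TPM + 1) gave -0.14 for Pax6 and 0.07 for Lhx2, and edgeR without S89G-DMP1 replicate 1 gave -0.25 and 0.02. The only member called in NSCs, Dlx1, had the smallest in astrocytes with TMM scaling, and with library totals as the scale its log2 ratio was 0.42 and that of Dlx2 was -0.28. No difference between the cell types was tested, since the astrocytes had no replicates.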

How the data were processed

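RNA sequencing of 8 libraries was examined. For the astrocytes the authors deposited read counts for each gene and FPKM values, made after alignment with TopHat2 2.0.9 on Bowtie2 2.0.6, with the counter and build not given in the sources used here. For the NSCs the authors deposited counts and TPM values on GRCm38, and the submitters' processing notes name HISAT2, StringTie and featureCounts. Between 38 and 51 genes with at least 100 counts were listed at a TPM of 0 in each NSC library, none of them a member, so counts carried the main comparison. NSC counts (47224 of 47729 identifiers matched a GENCODE symbol) were filtered with filterByExpr at a minimum of 10 counts, scaled by TMM and fitted with edgeR 4.0.16 in R 4.3.3, with genotype as the only term. DESeq2 1.42.0 and limma 3.58.1 on log2(TPM + 1) and log2(TPM + 0.1) served as alternatives. For the astrocytes (39973 of 40562 matched), TMM-scaled CPM values were turned into log2 ratios (prior count 2) wherever 1 of the libraries had 10 or more counts, without a test. Ratios carry 95% intervals from the binomial share of reads, which cover counting error only, and a library at 0 was set to 3 counts for bounds. Exact permutation tests used scipy 1.17.1. The procedure was tested on simulated data. Pairs of NSC libraries of 1 genotype differed by 1.07 to 1.51 chi-square units per gene, above sampling noise, so all were kept. These values do not settle whether the libraries are technical repeats. The members and lists were chosen with earlier results of these data known, and some genes first placed in the pallial and subpallial lists are not reported here, so list counts and medians leave them out. Named genes were all members, list genes past the adjusted p of 0.05 in NSCs, list genes at least 4-fold apart with 50 counts in astrocytes, antisense partners, and the 5 genes most like the member with the smallest adjusted p.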

Additional observations from a re-analysis of the deposited data

Results flagged for a closer look

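In all, 3 patterning genes had S89G-DMP1 over WT values of opposite sign in astrocytes and in NSCs, with NSC values that did not overlap between genotypes, as in 30.7% of all tested genes, and none of these contrasts was tested because the astrocytes had 1 library per genotype. Dlx1 had a log2 ratio of 0.14 in astrocytes and a log2 fold change of -1.42 in NSCs, but its astrocyte ratio of 1.10 had a counting interval of 0.740 to 1.65, so its sign in astrocytes was not set. Dmrta2 had -0.73 in astrocytes and 0.49 in NSCs. Six3 had 2.16 in astrocytes and -1.30 in NSCs. No group had the 4 libraries needed to look for outlying samples.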

How the results depend on the processing

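The count of 1 member called in NSCs became 0 in DESeq2, with at least 10 counts required in every library (where Dlx1 and Dlx2 were no longer tested), and in limma on log2(TPM + 1) and on log2(TPM + 0.1), and it ranged from 0 to 1 when each library was left out. The call of Dlx1 held in 5 of 6 such fits and was lost without S89G-DMP1 replicate 2. Its log2 fold change ranged from -2.02, without S89G-DMP1 replicate 1, to -1.06, without S89G-DMP1 replicate 2. The count for the other pallial genes, 1, became 0 in DESeq2 and in both limma fits and 3 without a filter on low counts, with a range of 0 to 1 when each library was left out. The count for the subpallial genes, 1, became 0 in both limma fits and was 1 in every fit without one library. Over all genes the 1773 calls became 851 in DESeq2, 145 in limma on log2(TPM + 1) and 116 on log2(TPM + 0.1), and 1363 to 1659 when each library was left out. When each library was left out, the log2 fold change of Emx2 ranged from -0.32 to 0.0045 and turned in sign without S89G-DMP1 replicate 1, and that of Pax6 ranged from -0.25 to 0.038 and turned without S89G-DMP1 replicate 3. In astrocytes, with at least 10 counts in both libraries, 2 pallial genes in place of 5, 2 subpallial genes in place of 6 and 3066 genes in all in place of 4723 were at least 2-fold apart, since genes with fewer than 10 counts in 1 of the libraries then drop out, and 2167 genes in all were at least 4-fold apart. With at least 50 counts in either library, 3 pallial genes were at least 2-fold apart, all higher in S89G-DMP1 AST. When log2(FPKM + 1) was used, the astrocyte log2 ratio of Emx2 became -1.60 in place of -2.59, and that of Otx1 became 1.21 in place of 2.24. The cause of the other shifts was not tested.

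Equal replicate numbers of the genotypes did not pair the libraries, with correlations of their deviations of 0.055, 0.014 and 0.00014. A replicate block gave 1845 calls, 1 of them a member, 1 a pallial and 1 a subpallial gene. Depth limited Dlx1, Dlx2, Emx1 and Gsx2 in NSCs, which had at most 17 counts per library, and counting error was the only error available for astrocytes.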
